A study of Drosophila melanogaster with 37 samples.

Results

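Occupancy of MSL3 after CLAMP RNAi was described from 7 peak lists of S2 cells, 3 of CLAMP RNAi and 4 of GFP RNAi, out of 25 peak lists and 37 samples in all. The lists were chosen by antibody and RNAi label. S2 is a male cell line of Drosophila melanogaster, and no mutation or transgene is given in the labels. Control cells had received dsRNA against GFP and knockdown cells dsRNA against CLAMP, both at 4.5 ug/mL, and chromatin was precipitated with a goat antibody against MSL3. A further 3 MSL3 lists are used for comparison, from cells given dsRNA against GAF, another GA-binding factor, at 4.5 ug/mL. CLAMP lists of control and CLAMP RNAi cells and GAF lists of control cells give the sites of these factors. The labels do not say whether replicates came from separate cultures, so differences between them may be technical.

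MSL3 is a subunit of the male-specific lethal (MSL) complex, which raises transcription of the single male X chromosome. The complex first binds a limited number of GA-rich entry sites on X and spreads from them to active genes, so that MSL3 signal in male cells forms broad domains along X. CLAMP, a zinc-finger factor, recognises GA repeats, including those of the entry sites, and is needed for recruitment of the complex. The comparison asks what is left of MSL3 occupancy when CLAMP is depleted.

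Analysis was restricted to X, 4 and the arms of chromosomes 2 and 3 (2L, 2R, 3L and 3R). Control lists held 26306, 10572, 668 and 31717 regions in replicates 1 to 4, and CLAMP RNAi lists held 984, 103 and 12136 in replicates 1 to 3. Read depth is unknown. The CLAMP RNAi list of replicate 2 has no region on 3R and that of control replicate 3 none on 2R. Arm 4 has none in control replicates 2 and 3 or in CLAMP RNAi replicates 1 and 2. CLAMP itself had 749 and 430 peaks in its CLAMP RNAi lists against 5380, 2178 and 10984 in its control lists. No CLAMP list of CLAMP RNAi replicate 3 was analysed here.

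Because the lists differ so much in length, each was ordered by the authors' fold enrichment and cut to the 103 highest regions, the length of the shortest list. For measures on X alone, the 42 highest X regions of each list were taken, since the shortest list holds 42. Library values were set against each other by exact permutation, two-sided. A test of 4 libraries against 3 cannot give a p under 0.0571, and one of 3 against 3 none under 0.1. No comparison could therefore pass 0.05.

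The library labelled GFP RNAi replicate 4 stood apart from the other 3 controls. Of its 103 highest regions 15 were on X, and their median width was 170 bp. Among its 42 highest X regions 2 held a CLAMP site, and none was shared with the corresponding 42 of any other control or CLAMP RNAi library. The main group comparisons are therefore given with and without it.

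In control replicates 1 to 3 the strongest MSL3 regions were almost all on X. After CLAMP RNAi most of them were on other arms. X carried 99, 103 and 102 of the 103 highest regions in control replicates 1 to 3. It carried 30, 42 and 24 of them in CLAMP RNAi replicates 1 to 3, which is 29.1%, 40.8% and 23.3%, with exact 95% binomial intervals of 20.6 to 38.9, 31.2 to 50.9 and 15.5 to 32.7 that cover counting error only. The arm itself makes up 18.6% of the 6 arms, measured to the last region called on each. The CLAMP RNAi libraries lay far below control replicates 1 to 3 and above control replicate 4, at 14.6%. The means were 31.1% ± 8.90 (SD, n = 3) against 77.4% ± 41.9 (SD, n = 4), a difference of −46.4 points (exact permutation p 0.229, adjusted over 7 tests 0.4). Without control replicate 4 the difference was −67.3 points and the groups did not overlap (exact permutation p 0.1, the smallest possible, adjusted 0.14). The contrast is one of the highest-fold regions. Over whole lists, of unlike length, X held 6.72%, 9.37%, 43.4% and 9.23% in control replicates 1 to 4. It held 10.7%, 40.8% and 6.67% in CLAMP RNAi replicates 1 to 3, so the whole lists overlapped. For CLAMP RNAi replicate 2 the 103 regions are the whole list.

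**Figure D1:**
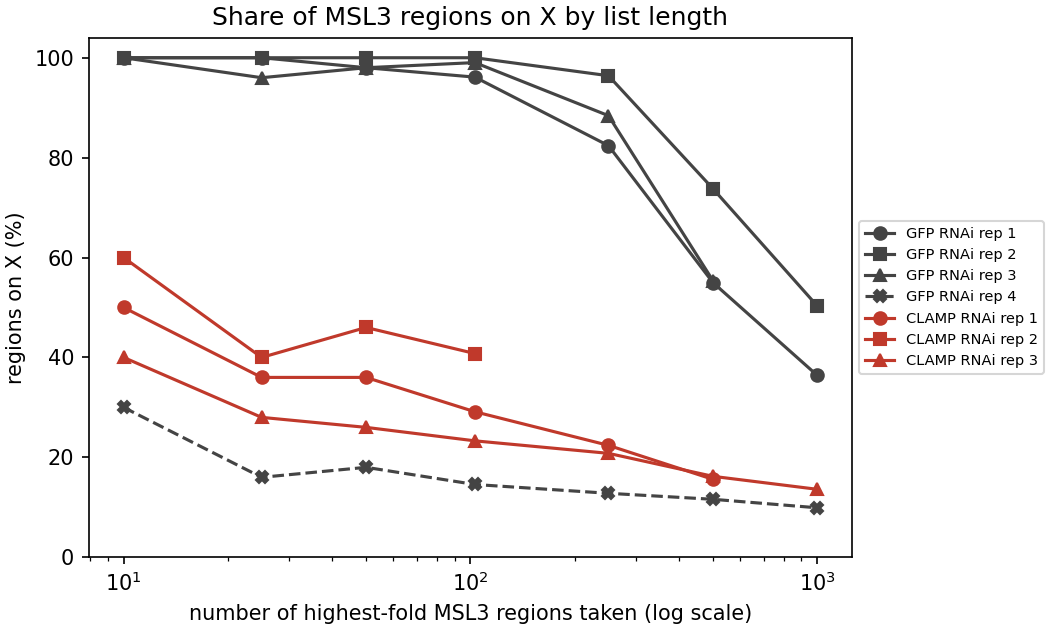
Percentage of MSL3 regions on X (y axis) among the highest-fold regions of each list, against the number of regions taken (x axis, log scale), 1 line per library. At 103 regions control replicates 1 to 3 lie between 96.1% and 100%, the CLAMP RNAi libraries between 23.3% and 40.8%, and control replicate 4 at 14.6%.

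The contrast was present at the head of the lists. Among the 25 highest regions X had 25, 25, 24 and 4 in control replicates 1 to 4, and 9, 10 and 7 in CLAMP RNAi replicates 1 to 3. At 500 regions, a length that CLAMP RNAi replicate 2 does not reach, X had 55.0%, 73.8%, 55.4% and 11.6% in the controls and 15.6% and 16.2% in CLAMP RNAi replicates 1 and 3. The places that X no longer held were spread over the other long arms. CLAMP RNAi replicate 1 had 30 of its 103 regions on 2L, 25 on 3L, 11 on 3R and 7 on 2R. CLAMP RNAi replicate 2 had 28 on 2L, 17 on 3L and 16 on 2R. CLAMP RNAi replicate 3 had 34 on 2L, 16 on 3L, 13 on 3R, 12 on 2R and 4 on arm 4. In all 3 libraries 2L held the most regions of the autosomal arms. The same was so after GAF RNAi, the other knockdown described last, with 1, 26 and 27 on 2L in replicates 1 to 3.

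Within whole lists, X regions still tended to rank above autosomal ones after CLAMP RNAi. The probability that an X region had a higher fold than an autosomal region of the same list was 70.3%, 59.1% and 61.1% in CLAMP RNAi replicates 1 to 3. It was 68.5%, 81.4%, 91.1% and 49.2% in control replicates 1 to 4, where 50% means no order. CLAMP RNAi replicate 1, with 984 regions, ranked its X regions as high as control replicate 1 did, with 26306. The groups therefore overlapped with and without control replicate 4, but this measure was not taken at equal list length. The difference was −9.02 points (63.5 ± 5.97, SD, n = 3, against 72.6 ± 18.1, SD, n = 4; exact permutation p 0.514, adjusted 0.6), and −16.8 points without that library (exact permutation p 0.2, adjusted 0.2).

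The strongest regions of CLAMP RNAi cells were short. MSL3 domains are wide where the complex has spread, and the median width of the 103 highest regions was 2903, 3174 and 1322 bp in control replicates 1 to 3. It was 574, 402 and 533 bp in the 3 CLAMP RNAi libraries and 170 bp in control replicate 4. Regions of at least 2000 bp numbered 67, 78, 22 and 0 in control replicates 1 to 4 and 16, 6 and 14 after CLAMP RNAi, while regions under 500 bp numbered 8, 3, 16 and 92 against 40, 63 and 48. Every CLAMP RNAi median lay below those of control replicates 1 to 3 and above that of replicate 4. As geometric means the widths were 497 bp (n = 3) and 1200 bp (n = 4), a log2 difference of −1.27 (exact permutation p 0.343, adjusted 0.48). Without control replicate 4 they were 4.63-fold apart (log2 difference −2.21, exact permutation p 0.1, adjusted 0.14). The order did not extend down the lists: with 668 regions per list the medians of control replicates 1 to 4 were 633, 1230, 532.5 and 181.5 bp and those of CLAMP RNAi replicates 1 and 3 were 667.5 and 785 bp.

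**Figure D2:**
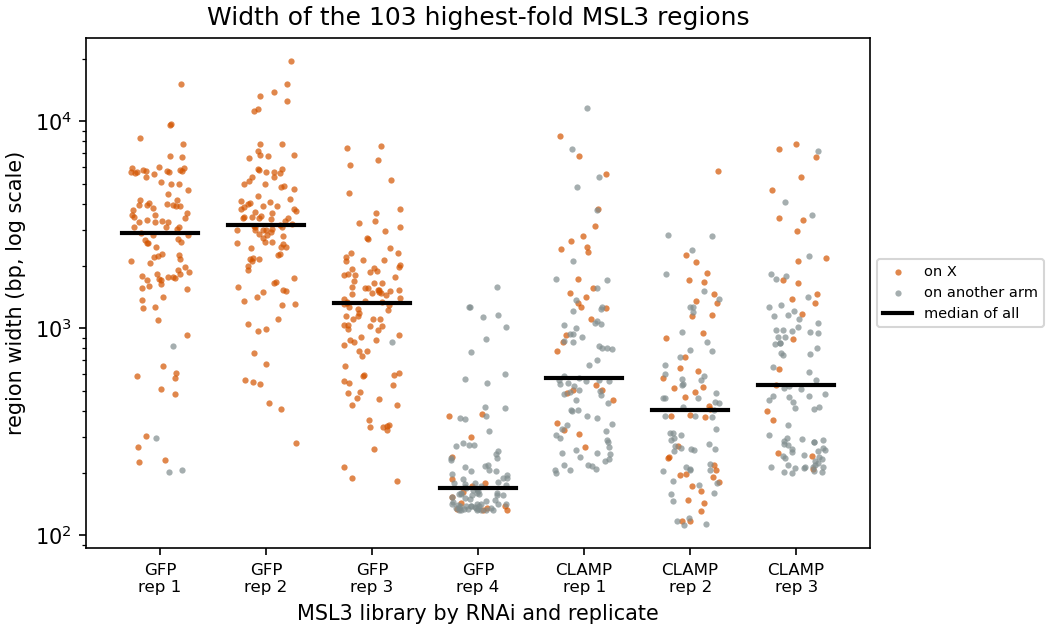
Width in bp (y axis, log scale) of each of the 103 highest-fold MSL3 regions in every library (x axis), coloured by whether it lies on X, with the median as a bar. Medians are 1322 to 3174 bp in control replicates 1 to 3, 402 to 574 bp after CLAMP RNAi and 170 bp in control replicate 4, and most points after CLAMP RNAi are on other arms.

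The short median mixes regions of X and of other arms. On X alone, the 42 highest regions had median widths of 1018, 445 and 1526 bp after CLAMP RNAi. In control replicates 1 to 4 they were 2184.5, 3410.5, 1233.5 and 154 bp. CLAMP RNAi replicate 3 exceeded control replicate 3, so the groups overlapped (log2 difference −0.30, exact permutation p 0.857, adjusted 0.857; without control replicate 4, −1.24, exact permutation p 0.2, adjusted 0.2). The direction turned without control replicate 1, control replicate 2 or CLAMP RNAi replicate 2 (log2 differences 0.0312, 0.245 and 0.192), each with control replicate 4 kept. Wide X regions were still called after CLAMP RNAi, the widest among the 42 being 10458, 5762 and 10547 bp in replicates 1 to 3. No region of CLAMP RNAi replicates 1 and 2 had a −log10 q above 0.0919, so their calls are of low confidence. The highest was 11.6 in CLAMP RNAi replicate 3 and 13.4, 2.16, 0.931 and 14.4 in control replicates 1 to 4. Control replicate 3 was thus low as well. Over the 103 highest regions the median −log10 p was 1.33, 1.12 and 2.45 after CLAMP RNAi and 6.07, 2.94, 2.15 and 2.92 in control.

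On other arms the highest regions were wider after CLAMP RNAi than in control. Among the 61 highest regions of 2L, 2R, 3L and 3R, the number that the shortest list holds, the median was 496, 378 and 412 bp in CLAMP RNAi replicates 1 to 3. In control replicates 1 to 4 it was 207, 256, 356 and 172 bp. All 3 CLAMP RNAi libraries lay above all 4 controls (mean difference 181 bp, exact permutation p 0.0571, the smallest possible; adjusted over the 9 measures added after the data were seen, 0.257). Without control replicate 4 the difference was 156 bp (exact permutation p 0.1, adjusted 0.3). GAF RNAi libraries had medians of 234, 612 and 412 bp on these arms, so 2 of the 3 lay within or above the CLAMP RNAi range. Few of these autosomal regions held a CLAMP site in either group: 1, 1 and 2 of the 61 after CLAMP RNAi and 5, 1, 4 and 4 in control.

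The X regions left after CLAMP RNAi were concentrated on parts of the chromosome. The X arm of the build spans 23 bins of 1 Mb. The 42 highest X regions occupied 20, 21, 20 and 22 bins in control replicates 1 to 4 and 12, 9 and 14 bins in CLAMP RNAi replicates 1 to 3. All 4 controls, replicate 4 included, lay above all 3 CLAMP RNAi libraries. The means were 20.8 ± 0.957 (SD, n = 4) and 11.7 ± 2.52 (SD, n = 3), a difference of −9.08 bins (exact permutation p 0.0571, the smallest possible, adjusted over 7 tests 0.2). Without control replicate 4 it was −8.67 bins (exact permutation p 0.1, the smallest possible).

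Distances between neighbouring X regions gave the same order. The median distance between midpoints was 307, 379, 276 and 320 kb in control replicates 1 to 4 and 51.6, 2.44 and 191 kb in CLAMP RNAi replicates 1 to 3. The groups did not overlap (log2 difference −3.46, exact permutation p 0.0571, adjusted 0.2; without control replicate 4, −3.46, exact permutation p 0.1, adjusted 0.14). The size of this difference depends on CLAMP RNAi replicate 2, without which it was −1.68 on the log2 scale. With more regions, 105 on X per list and CLAMP RNAi replicate 2 left out, the median distance was 170, 157, 160 and 119 kb in control and 9.63 and 63.1 kb in CLAMP RNAi replicates 1 and 3, and the bins numbered 23, 23, 22 and 23 against 15 and 18.

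**Figure D3:**
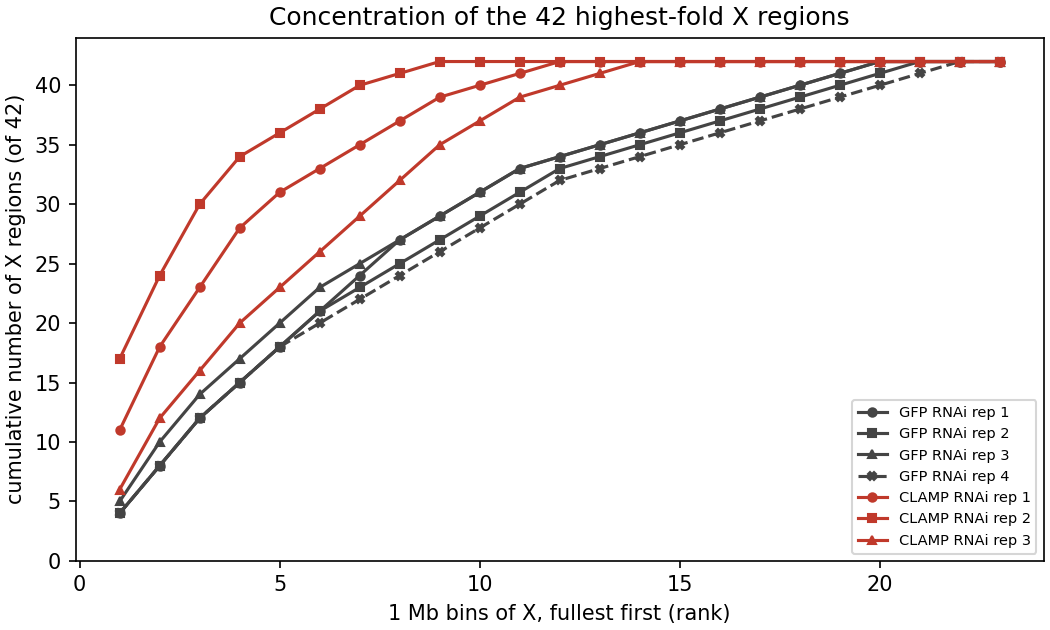
Cumulative number of the 42 highest-fold X regions (y axis) over 1 Mb bins of X ordered from the fullest to the emptiest (x axis), 1 line per library. CLAMP RNAi lines reach 42 within 9 to 14 bins and control lines within 20 to 22.

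In CLAMP RNAi replicates 1 and 2 the fullest bin was the same, from 1 to 2 Mb, with 11 and 17 regions. In CLAMP RNAi replicate 3 the fullest bin was 16 to 17 Mb, with 6 regions. Between 1 and 3 Mb lay 18, 21 and 1 of the 42 regions in CLAMP RNAi replicates 1 to 3 and 4, 6, 7 and 2 in control replicates 1 to 4. Concentration was therefore present in all 3 libraries, but its place differed between replicate 3 and the other two. Many of the regions were neighbours. When regions no more than 10 kb apart were joined, the 42 regions formed 29, 15 and 37 groups after CLAMP RNAi and 41, 42, 42 and 41 in control (difference −14.5, exact permutation p 0.0571, adjusted over 9 tests 0.257; without control replicate 4, −14.7, exact permutation p 0.1). When, in order of fold, X regions were kept only if more than 10 kb from every region already kept, 18 per library, the bins were 10, 9 and 11 against 15, 14, 13 and 13, and the groups still did not overlap (exact permutation p 0.0571, range over the alternatives 0.0571 to 0.25).

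On the autosomes the groups overlapped. The 61 highest regions of the 4 long autosomal arms occupied 32, 16 and 38 bins of 1 Mb after CLAMP RNAi and 40, 40, 28 and 43 in control, and only CLAMP RNAi replicate 2 lay below every control (exact permutation p 0.286, adjusted over 9 tests 0.514). In CLAMP RNAi replicates 1 and 2, the 1 Mb of 2L from 8 to 9 Mb alone held 8 and 19 of them, and in replicate 3 it held 0. It held 0, 1, 2 and 0 in control and 0, 10 and 4 after GAF RNAi, the other knockdown described last, so it was not filled after CLAMP RNAi alone. The number of occupied bins per region on X minus that on autosomes differed by −6.74 points between groups (exact permutation p 0.457, adjusted over 9 tests 0.588; without control replicate 4, −8.61 points, exact permutation p 0.4), so the concentration was not shown to be larger on X.

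CLAMP sites were rarer among the highest X regions of CLAMP RNAi cells than among those of control replicates 1 to 3. CLAMP sites are merged CLAMP peaks called in at least 2 control CLAMP lists, 2751 in all and 766 on X. Of the 42 highest X regions, 42, 41 and 41 held a CLAMP site in control replicates 1 to 3 and 2 in control replicate 4. After CLAMP RNAi 18, 12 and 20 did, with exact 95% intervals of 27.7 to 59.0%, 15.7 to 44.6% and 32.0 to 63.6%. The CLAMP RNAi libraries lay between control replicate 4 and the other 3 controls (39.7% ± 9.91, SD, n = 3, against 75% ± 46.8, SD, n = 4; exact permutation p 0.229, adjusted 0.4). Without control replicate 4 the difference was −58.7 points (exact permutation p 0.1, the smallest possible, adjusted 0.14). Overlap was counted from 1 bp, and the regions were not matched for width. With 18 X regions per library, over 10 kb apart, the shares were 50%, 50% and 55.6% after CLAMP RNAi. They were 100%, 94.4%, 100% and 0% in control replicates 1 to 4 (difference −21.8 points, exact permutation p 0.743). GAF sites, defined in the same way from control GAF lists, were held by 2, 1 and 3 of the 42 after CLAMP RNAi and by 10, 9, 2 and 3 in control.

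Sites that still had a CLAMP peak in either CLAMP RNAi list make up 23.8% of the X CLAMP sites. Among the X regions at CLAMP sites, 10 of 18, 5 of 12 and 15 of 20 had such a peak in CLAMP RNAi replicates 1 to 3. In control replicates 1 to 3 it was 20 of 42, 16 of 41 and 20 of 41. The share in CLAMP RNAi replicate 3 was the highest of these libraries, and that of replicate 2 lay within the control range.

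**Figure D4:**
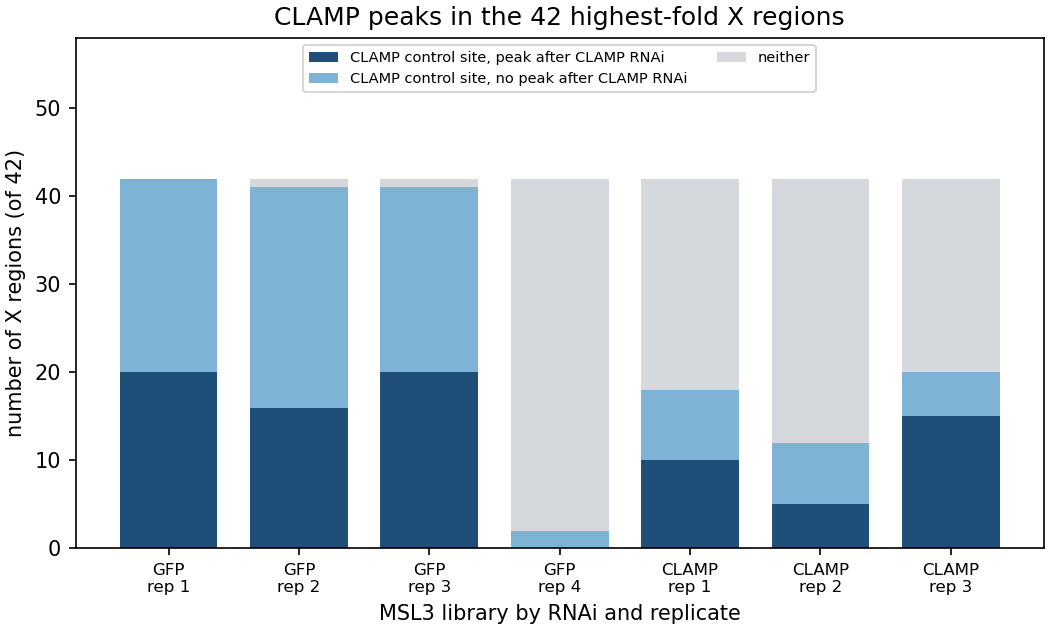
Number of the 42 highest-fold X regions (y axis) in each MSL3 library (x axis) that hold a CLAMP control site with a CLAMP peak after CLAMP RNAi, a CLAMP control site without one, or neither. Regions with neither number 24, 30 and 22 after CLAMP RNAi, 0, 1 and 1 in control replicates 1 to 3 and 40 in control replicate 4.

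Most X regions away from CLAMP sites were also called in control. Of the 24, 30 and 22 such regions in CLAMP RNAi replicates 1 to 3, 24, 29 and 15 were also called in the whole lists of at least 2 of control replicates 1 to 3, and 0, 0 and 3 in none of these. The control X regions described next held 1, 6 and 0 of them. At CLAMP sites, all 18, 12 and 20 regions were called in at least 2 of these controls. The whole lists of control replicates 1 and 2 are long and cover 18.8 and 8.90 Mb. The share over all X regions of CLAMP RNAi replicates 1 and 3 was not worked out, so these counts have no background beside them. Regions at CLAMP sites were wider than those away from CLAMP sites in replicates 1 and 3 (medians 1293.5 and 2662.5 bp against 879 and 1222.5 bp). In replicate 2 they were narrower (365 against 445 bp).

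The control X regions are 35 merged regions found among the 42 highest of at least 2 control libraries. All 35 held a CLAMP site, 8 held a GAF site, and 15 still had a CLAMP peak after CLAMP RNAi. Control libraries chose them, so their values in control are a description. Whole CLAMP RNAi lists called 12, 4 and 27 of the 35 in replicates 1 to 3, or 34.3%, 11.4% and 77.1%. For all 1021 X regions called in at least 2 whole control lists the percentages were 7.15, 1.86 and 49.1, and for 13199 such autosomal regions 4.09, 0.28 and 40.9. Strong control X regions were thus called more often than X regions in general, which in turn were called more often than autosomal ones, in each CLAMP RNAi library. The 35 have a median width of 3287 bp and 1 shared bp counts as a call. The sets were not matched for width. Control replicate 4 called 12 of the 35, as many as CLAMP RNAi replicate 1, from a list of 31717 regions against 984. GAF RNAi lists, of another knockdown described last, called 34, 33 and 30 of the 35, beside 93.3%, 64.1% and 53.9% of all such X regions and 79.8%, 69.5% and 57.4% of the autosomal ones.

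Control X regions called after CLAMP RNAi were covered to very different extents. The median share of bases covered, over the regions called, was 22.1%, 6.15% and 47.1% in CLAMP RNAi replicates 1 to 3. It was 99.9%, 97.8%, 52.2% and 10.3% in control replicates 1 to 4. The regions take their edges from control calls, so high coverage in the controls that drew them was built in. The gap between groups is therefore no measure of loss. In CLAMP RNAi replicate 3 single regions ranged up to X 19516551 to 19519107, of which all 2557 bp were covered. The median of CLAMP RNAi replicate 3 was close to that of control replicate 3, whose list holds 668 regions against 12136. All 3 CLAMP RNAi lists called 4 of the 35 regions, 2 lists called 8, a single list called 15 and none called 8. Regions with a CLAMP peak left after CLAMP RNAi were called in 7, 3 and 11 of 15 cases and those without in 5, 1 and 16 of 20, so the order was not the same in the 3 libraries.

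**Figure D5:**
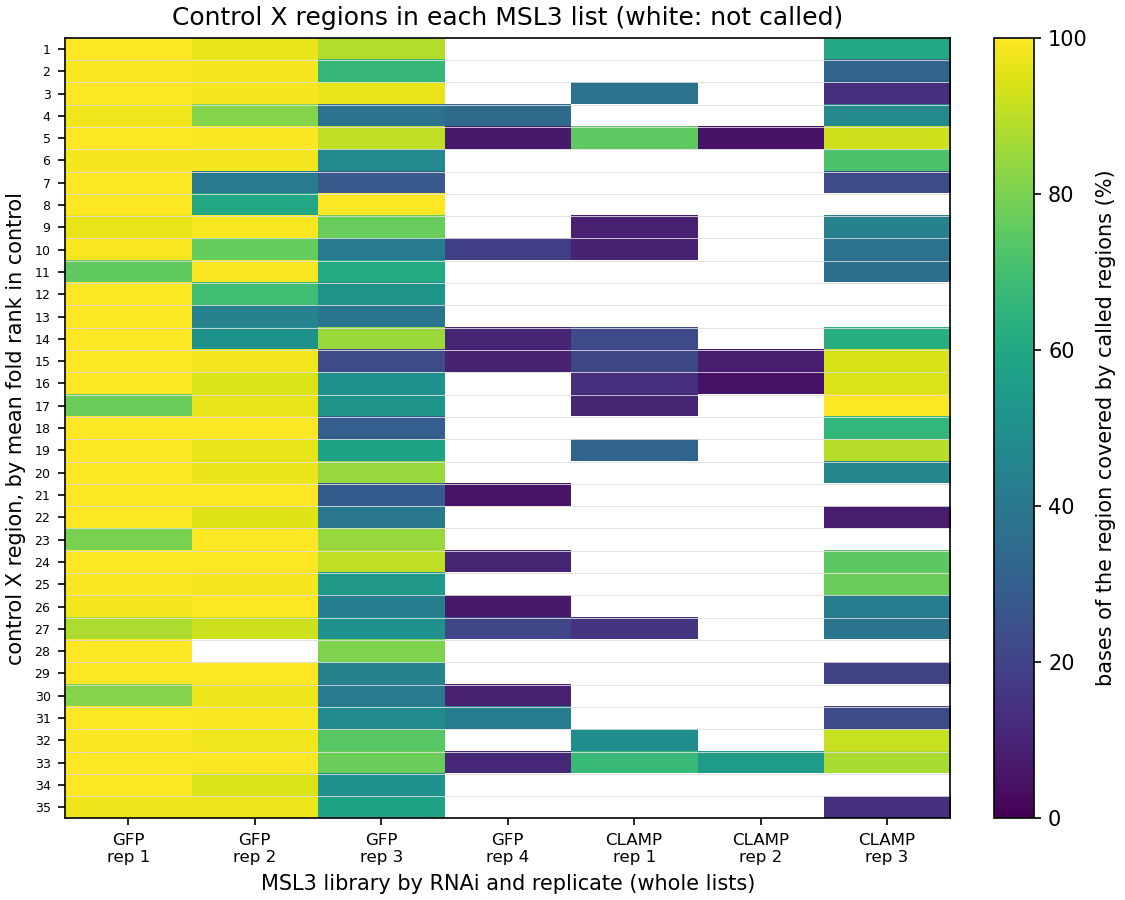
Percentage of bases of each of the 35 control X regions (y axis, best mean fold rank in control first) covered by called regions in the whole list of each MSL3 library (x axis); white means not called. CLAMP RNAi replicates 1 to 3 call 12, 4 and 27 of the 35, and control replicates 1 to 4 call 35, 34, 35 and 12. The median share of bases covered in those called is 22.1%, 6.15% and 47.1% in CLAMP RNAi replicates 1 to 3. In control replicates 1 to 4, whose calls set the edges of the regions, it is 99.9%, 97.8%, 52.2% and 10.3%.

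Coordinates are those of the deposited lists, on build dm3, and without an annotation of that build the genes at them are not given. The best-ranked control X region was X 12804138 to 12805858. It stood first in fold among X regions in control replicates 1 to 3, with 3.28, 3.84 and 2.82. It was called in CLAMP RNAi replicate 3 alone, at place 268 among X regions with a fold of 1.39, although a CLAMP peak remained there after CLAMP RNAi. Another 4 of the 10 best-ranked were called in the same single CLAMP RNAi library. X 15693798 to 15696283 and X 19633804 to 19638044, at places 6, 7 and 9 and at 14, 8 and 17 in control replicates 1 to 3, were called in CLAMP RNAi replicate 3 alone at places 367 and 318. X 18547435 to 18550992 was called there alone too, at place 37, and so was X 16500868 to 16502418, at the first place.

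Several of the 10 kept a high place in single libraries. X 16500868 to 16502418, a site of both CLAMP and GAF, had stood at places 4, 4 and 151 in control replicates 1 to 3, and 362 of its 1551 bp were covered in CLAMP RNAi replicate 3. X 7212111 to 7217749 stood at 18, 18 and 19 in control, at 12 in CLAMP RNAi replicate 1 and at 2 in replicate 3. X 1971000 to 1974349 stood at 22, 2 and 2 in control, at 7 in CLAMP RNAi replicate 1 and at 727 in replicate 3. X 5508819 to 5512833 stood at 38 in CLAMP RNAi replicate 1 and 411 in replicate 3. X 2234453 to 2238603 was the single one of the 10 called in all 3 CLAMP RNAi lists, at places 9, 9 and 36, with 3128, 199 and 3834 of its 4151 bp covered. The short region X 4021593 to 4022055, of 463 bp, was called in none of them, although it too had a CLAMP peak left. The places of single regions thus varied widely between CLAMP RNAi libraries.

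CLAMP RNAi replicates 1 and 2 shared more of their 42 highest X regions with each other than with replicate 3. Those of replicate 1 overlapped 14 of the 42 with replicate 2 and 8 with replicate 3, and those of replicate 2 overlapped 6 with replicate 3. Control replicates 1 and 2 shared 25, and each shared 15 with control replicate 3. Of replicate 2, 23 regions fell on 14 regions of replicate 1, so that several calls of replicate 2 lay within 1 region of replicate 1. Merged, 21 X regions were among the 42 highest of at least 2 CLAMP RNAi libraries and 3 of these in all 3. The 21 held a CLAMP site in 15 cases, and 7 lay in the 35 control X regions.

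CLAMP RNAi libraries chose and ordered the 21, so higher places there than in control are expected from the choice alone. The best placed of the 21 was X 19533237 to 19536654, at places 4, 1 and 6 in CLAMP RNAi replicates 1 to 3. It stood at 25, 14 and 37 in control replicates 1 to 3. It held a CLAMP site and a CLAMP peak after CLAMP RNAi. X 14942906 to 14949604, also at a CLAMP site with a peak left, stood at 21, 7 and 12 after CLAMP RNAi and at 107, 44 and 35 in control. X 1765961 to 1769738 held no CLAMP site; it stood at 6, 5 and 530 after CLAMP RNAi and at 1010, 232 and 189 in control. X 2234641 to 2238474 and X 7214662 to 7216766 complete the best 5 and lie in control X regions named above. Places within X are comparable between lists only as an order, since the lists hold 42 to 2929 X regions.

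The region of highest fold in all 3 CLAMP RNAi libraries was on an autosome and was the same one. It was called at 3L 673025 to 673691, 673526 to 673672 and 673342 to 673753 in replicates 1 to 3, with folds of 2.19, 2.30 and 2.07. In the order by fold it stood at 45, 228 and 21 in control replicates 1 to 3 and at 26343 in replicate 4, with folds of 2.24, 2.04, 2.40 and 1.66. Its folds in control replicates 1 to 3 and after CLAMP RNAi were of similar size. Fold is relative to its own library, so this does not compare occupancy between libraries. After CLAMP RNAi no X region stood above it in its list. The place is a CLAMP site and a GAF site of control cells: CLAMP peaks there ranked 2067, 1814 and 2186 by fold in control replicates 1, 2 and 4, and GAF peaks 1806, 1824 and 1611 in replicates 1 to 3. A CLAMP peak was called there in CLAMP RNAi replicate 1, with a fold of 3.23, and none in replicate 2. In CLAMP RNAi replicate 3 it carried a −log10 q of 11.6, the highest of that list, and in replicates 1 and 2 the values were 0.0919 and 0.

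The next regions of the CLAMP RNAi lists were not shared in this way. After the first region, replicate 1 had 2L 8594184 to 8594434 and 2L 8404217 to 8407942, neither at a CLAMP site. The latter stood at 15 and 285 in CLAMP RNAi replicates 2 and 3. Replicate 2 had 2R 3714061 to 3714219, away from CLAMP sites, and X 19535076 to 19535248, part of the best placed shared X region. Replicate 3 had X 16501913 to 16502274 and X 7214662 to 7216766, both at CLAMP sites.

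No region separated all controls from all CLAMP RNAi libraries. Of 468 merged regions from the 103 highest of each library, 0 (0%) were in every control and in no CLAMP RNAi library, and 0 (0%) the reverse. Without control replicate 4, 38 of 365 (10.4%) were in the 103 highest of all 3 controls and of no CLAMP RNAi library, and 0 of 365 (0%) the reverse. All 38 lay on X and all 38 held a CLAMP site, as did nearly all of the regions they were drawn from: 99, 103 and 102 of the 103 highest in control replicates 1 to 3 were on X, and 101, 89 and 102 held a CLAMP site. GAF sites were in 2 of them, and 11 still had a CLAMP peak after CLAMP RNAi. Their median width was 3677 bp. In the whole CLAMP RNAi lists 21 of the 38 were called in a single list, 2 in 2 lists and 15 in none.

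GAF RNAi, another knockdown of a GA-binding factor in the same cells, gives a second set of 3 MSL3 lists that shares no library with the CLAMP RNAi group. Its 42 highest X regions held a CLAMP site in 42, 35 and 28 cases and occupied 21, 20 and 17 bins. Their median widths were 2594, 1904 and 2035.5 bp. In these 3 measures the CLAMP RNAi and GAF RNAi libraries did not overlap: CLAMP RNAi minus GAF RNAi was −43.7 points, −7.67 bins and −1.29 on the log2 scale (each exact permutation p 0.1, the smallest possible, adjusted over 7 tests 0.175). The share of the 103 highest regions on X did overlap, with 99.0%, 57.3% and 22.3% after GAF RNAi (difference −28.5 points, exact permutation p 0.4, adjusted 0.4). Median distances on X overlapped too, at 306, 451 and 179 kb after GAF RNAi (log2 difference −3.34, exact permutation p 0.2, adjusted 0.28). GAF RNAi replicate 3 had 13 of its 42 regions between 1 and 3 Mb, and replicates 1 and 2 had 5 and 2. The fold rank of X regions was higher after CLAMP RNAi than after GAF RNAi, by 10.4 points (exact permutation p 0.3, adjusted 0.35), and overlapped. The median widths of the 103 highest regions were 3441, 1075 and 643 bp after GAF RNAi and did not overlap with those after CLAMP RNAi (log2 difference −1.42, exact permutation p 0.1, adjusted 0.175).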

How the data were processed

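ChIP-seq peak lists were used as deposited. Per the submitters' processing notes, reads were processed with Bowtie and MACS2 2.1.1 on build dm3; options and the control given to MACS2 are not given in the sources used here. The authors called broad MSL3 regions separately in each library. Fold enrichment (a ratio), −log10 p and −log10 q are deposited for every region, relative to its own library. Fold was used to order regions within a list (ties by −log10 p), and the other values for alternatives. Depth is unknown, and weak libraries give short lists.

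Regions were taken as overlapping from 1 bp. Named X regions are the 10 of best mean fold rank among merged regions in the equal-number lists of at least 2 controls, the 3 highest regions of each CLAMP RNAi list and the 5 best shared X regions. Members, measures and lists were chosen with earlier results of these data known. Adjusted p values are Benjamini-Hochberg values. The gene table at hand belongs to another build, so no genes are named and no sequences are shown. Python 3.11.15, numpy 2.4.6, scipy 1.17.1 and matplotlib 3.10.9 were used. Overlaps and permutations were checked on simulated data with 0 disagreements.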

Additional observations from a re-analysis of the deposited data

Results flagged for a closer look

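GFP RNAi replicate 4 lay far from the other 3 controls in 2 measures, each with a gap to the nearest library that took nearly the whole range of the group (0.955 and 0.975 of it, past the 95% critical value of Dixon's test). Its share of the 103 highest regions on X was 14.6%, and the share of its 42 highest X regions at CLAMP sites was 4.76%. Chance alone gives a gap past the 95% critical value in about 1 of 20 groups. Both gaps lay above that value, and how often chance gives gaps as large as these was not worked out. The cause was not tested.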

How the results depend on the processing

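The share of regions on X, the fold rank of X regions, the occupied bins, the median distance and the share at CLAMP sites were below control under every alternative run, with exact permutation p between 0.0571 and 0.9. Leaving out single libraries moved these differences to −67.3 to −38.8 points, −16.8 to −2.86 points, −10.3 to −7.75 bins, −4.83 to −1.68 log2 units and −58.7 to −27.0 points. Width was less stable. For the 103 highest regions the log2 difference was −2.21 to −0.802 with single libraries left out, and 0.467 with 668 regions per list and CLAMP RNAi replicate 2 left out together; for X regions it was −1.24 to 0.245, positive without control replicate 1 (0.0312), control replicate 2 (0.245) or CLAMP RNAi replicate 2 (0.192), and the cause was not tested. Lost regions were 0 to 38 with single libraries left out, and 47 in the order by −log10 q without control replicate 4, an alternative added after seeing the data. Gained regions were 0 to 9 with single libraries left out, 5 in the order by −log10 q with or without control replicate 4, 13 with 668 regions per list and CLAMP RNAi replicate 2 left out together, and 1 at a −log10 p of at least 1.3, a limit that leaves 19 regions per list. Whole-list ranks have no value at another list length.

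Same-numbered replicates did not deviate in the same direction over 1 Mb bins (r −0.466, −0.413 and −0.684). Pairs of unlike number had r from −0.200 to 0.618. With 3 libraries per group this check cannot decide whether same-numbered libraries were handled together. With the replicate number as a block the X share differed by −67.3 points (exact sign-flip p 0.25, the smallest possible).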
